A study of Saccharomyces cerevisiae with 12 samples.

Results

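The step from 0.01 to 0.1 µg/mL doxycycline was examined in budding yeast whose RAP1 gene is under a doxycycline-repressible promoter. It rests on 6 of the 12 samples, 3 at each of these doses, and on the 3 control samples that both doses were compared with. A gene was kept where its level was above 0 in control and at both doses and where the higher of the dose levels reached 5 FPKM. FPKM is a level that takes account of transcript length and sequencing depth. This kept 4979 of the 5085 genes listed. For each gene the log2 ratio of dose to control was taken at each dose, less the median over kept genes, and the step is the value at 0.1 minus the value at 0.01 µg/mL. A positive step means a higher level at 0.1 than at 0.01 µg/mL relative to the typical gene, and folds of the step below are on the same centred scale.

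All 4 groups, control, 0.01, 0.1 and 0.5 µg/mL doxycycline, hold cells of strain TH_5234 in log-phase growth, with 3 samples each. The strain is MATa and carries his3-1, leu2-0 and met15-0. By the labels, a kanR-tetO7-TATA cassette stands before RAP1 in every group, the control included, and a CMV promoter drives the activator tTA from URA3. By these labels the control differs in lacking doxycycline. The deposited values name their reference column WT, under a title that says Control. This column was read here as the untreated samples, which the values alone cannot settle. The labels do not say whether samples of a group were separate cultures. The authors deposited 1 pooled level a group and a q-value (an adjusted p) for each dose against control. No spread between samples and no test of 0.1 against 0.01 µg/mL could therefore be had, the depth is unknown, and steps are described by fold alone. A gene is said to be called at a dose where q was below 0.05 in that dose's table by the authors.

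Rap1 binds DNA, is needed for growth and switches on genes of ribosomal proteins and glycolysis. It also helps to silence telomeres and the spare mating-type cassettes. Yeast also turns ribosome production down and stress genes up when growth is disturbed. The heat-shock factor Hsf1 drives chaperone genes through heat-shock elements, Msn2 and Msn4 drive a wide set of protective genes through stress-response elements, and Rpn4 drives proteasome genes. Gcn4 and Bas1 activate amino acid and purine genes, and the factors SBF and MBF start the transcription of late G1.

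The upstream sequences of 7 genes that the results turn on are shown first, since each holds a motif named for its pathway. Each window covers 300 bases, ends 150 bases before the start codon, is read 5′ to 3′ on the gene's own strand and comes from the RefSeq R64 reference. HSP104 and RPN4 stood for genes that went on rising, GPH1 for genes that held, and MET6, ADE17, MTD1 and PCL1 for genes that went on falling. GPH1, of the trehalose and glycogen list, had the lowest step of that list, -0.30. All genes that first rose and then held had a median step of 0.19. Capitals mark a heat-shock element, TTC, GAA and TTC blocks with 2 free bases between blocks, in HSP104 and RPN4 and the stress-response element AGGGG in GPH1. They mark the Gcn4 and Bas1 core TGACTC in MET6, ADE17 and MTD1, and the Swi4 cell-cycle box CGCGAAA in PCL1. Both strands were searched, so a motif may stand as its reverse complement, and the 2 heat-shock elements of HSP104 overlap. Only the motif named for a gene is in capitals, and other motifs in its window are left unmarked. The HSP104 window also holds AGGGG, so the capitals draw no contrast between genes that rose and genes that held.
HSP104 (chrXII:88173-88472, plus strand): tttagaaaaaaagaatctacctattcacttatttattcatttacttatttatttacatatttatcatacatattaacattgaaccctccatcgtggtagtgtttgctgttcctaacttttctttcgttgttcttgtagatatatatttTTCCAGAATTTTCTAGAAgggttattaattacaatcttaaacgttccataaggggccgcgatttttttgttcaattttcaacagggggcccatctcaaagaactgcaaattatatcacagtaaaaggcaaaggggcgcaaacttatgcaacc
RPN4 (chrIV:416859-417158, minus strand): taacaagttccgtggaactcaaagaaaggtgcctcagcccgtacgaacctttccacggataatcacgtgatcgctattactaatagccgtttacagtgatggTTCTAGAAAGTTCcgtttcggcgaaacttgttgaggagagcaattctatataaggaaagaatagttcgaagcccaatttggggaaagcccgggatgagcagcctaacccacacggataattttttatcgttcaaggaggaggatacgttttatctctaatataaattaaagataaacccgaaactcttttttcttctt
GPH1 (chrXVI:860856-861155, plus strand): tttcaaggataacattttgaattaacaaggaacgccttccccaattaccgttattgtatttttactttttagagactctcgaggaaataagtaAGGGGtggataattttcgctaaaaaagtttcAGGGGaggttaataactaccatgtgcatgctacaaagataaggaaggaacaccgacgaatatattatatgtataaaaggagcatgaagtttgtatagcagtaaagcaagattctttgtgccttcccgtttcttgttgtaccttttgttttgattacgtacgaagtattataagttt
MET6 (chrV:342318-342617, minus strand): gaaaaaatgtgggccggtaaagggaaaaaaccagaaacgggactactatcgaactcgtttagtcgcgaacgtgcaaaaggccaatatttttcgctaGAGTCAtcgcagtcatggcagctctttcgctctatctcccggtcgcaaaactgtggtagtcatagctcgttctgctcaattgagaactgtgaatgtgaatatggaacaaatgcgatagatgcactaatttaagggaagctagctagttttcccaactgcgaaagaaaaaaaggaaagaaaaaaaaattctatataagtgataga
ADE17 (chrXIII:509431-509730, minus strand): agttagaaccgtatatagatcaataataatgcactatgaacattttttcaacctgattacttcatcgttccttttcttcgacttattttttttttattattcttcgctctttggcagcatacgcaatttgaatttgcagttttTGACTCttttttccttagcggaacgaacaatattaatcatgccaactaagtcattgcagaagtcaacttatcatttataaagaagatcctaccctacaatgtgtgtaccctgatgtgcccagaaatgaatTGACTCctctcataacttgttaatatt
MTD1 (chrXI:589945-590244, plus strand): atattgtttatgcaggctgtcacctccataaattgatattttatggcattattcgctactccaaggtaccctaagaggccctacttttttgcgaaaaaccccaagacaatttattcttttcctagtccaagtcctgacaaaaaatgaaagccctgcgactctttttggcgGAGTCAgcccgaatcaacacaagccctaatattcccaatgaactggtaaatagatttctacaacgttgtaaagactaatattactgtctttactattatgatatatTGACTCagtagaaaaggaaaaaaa
PCL1 (chrXIV:87447-87746, plus strand): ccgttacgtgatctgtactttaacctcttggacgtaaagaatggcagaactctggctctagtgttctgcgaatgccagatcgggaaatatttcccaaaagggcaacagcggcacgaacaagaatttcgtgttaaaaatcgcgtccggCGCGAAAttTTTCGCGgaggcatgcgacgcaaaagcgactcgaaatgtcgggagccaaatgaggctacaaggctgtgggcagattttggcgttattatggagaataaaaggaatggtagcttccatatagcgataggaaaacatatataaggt

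A match of letters is a description and not a shown binding site. Among 4932 windows of protein-coding genes, 1.12% held the heat-shock element, 23.4% the stress-response element, 8.70% the TGACTC core and 3.79% the Swi4 box. Of the 139 windows of genes at least 25% higher at 0.1 than at 0.01 µg/mL, 15 held the heat-shock element, 10.8%. At the limit of 1.5-fold it stood in 3 of 22 windows of higher genes, 13.6%, but also in 3 of 41 windows of lower genes, 7.32%. Of the 219 windows of genes at least 20% lower, 4 held it, 1.83%. In the 342 windows of genes that were called higher at 0.01 µg/mL and then held, its share was 2.05%. The stress-response element stood at 39.6% in the windows of the genes at least 25% higher and at 44.7% in those of the genes that held. Of the 41 windows of genes at least 1.5-fold lower at 0.1 µg/mL, 11 held TGACTC, 26.8%, and of the 219 of genes at least 20% lower 34 did, 15.5%. The Swi4 box stood in 3 of those 41 windows, 7.32%, and in 24 of those 219, 11.0%. The Rap1 core, CACCC and ACA with 2 free bases between them, stood in 1.62% of all windows, in 3 of those 219 and in 34 of the 603 windows of genes that were called lower at 0.01 µg/mL and then held, 5.64%. No test was made of these shares.

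Most genes moved little at this step. Of 4979 genes, 4603 (92.4%) lay less than 25% higher and less than 20% lower, and 5% of steps lay below -0.31 and 5% above 0.26 on the log2 scale. A difference of at least 25% higher or 20% lower is called the smaller limit below. At least 1.5-fold higher at 0.1 than at 0.01 µg/mL were 31 genes, a background of 0.623%, and at least 1.5-fold lower were 46 genes, 0.924%. The split depends on the centring: without it, 44 genes were higher and 32 lower, since the median gene itself stood 0.05 higher on the log2 scale at 0.1 µg/mL. Past the smaller limit, 150 genes were higher (3.01%) and 226 lower (4.54%). Just inside the 1.5-fold limit, the 10 nearest genes had steps of 0.59 to 0.66 on the higher side and of -0.62 to -0.59 on the lower side. Just outside it, steps ran from 0.55 to 0.58 and from -0.58 to -0.56, so the limit cuts a continuous range. With genes split by level into 5 equal sets, 20 were past 1.5-fold in the set with the lowest levels, 10 to 15 in the middle sets and 20 in the highest.

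Genes called at 0.01 µg/mL were sorted by what they did next. Went on means a step of at least 1.5-fold in the direction of the first change, in part means past the smaller limit that way but short of 1.5-fold, and held means within the smaller limit. Turned back means at least 1.5-fold the other way, and back in part means past the smaller limit the other way but short of 1.5-fold. The level at 0.01 µg/mL enters both the first change and the step, with opposite signs, and both doses share the control, so no correlation between them is given. Of the 442 genes called higher at 0.01 µg/mL (8.88% of kept genes), 15 went on, 81 went on in part, 343 held, 3 went back in part and 0 turned back. Without centring, 27 in place of 15 went on. Of the 771 called lower (15.5%), 37 went on, 130 went on in part, 603 held, 1 went back in part and 0 turned back. Most genes called higher and most called lower thus held, 77.6% and 78.2%, but over all kept genes 92.4% lay within the same limit. Of the 442 genes called higher 403 had a positive step, and of the 771 called lower 725 had a negative one. The 15 genes that went on higher had a median centred log2 change of 1.82 at 0.01, 2.55 at 0.1 and 2.43 at 0.5 µg/mL. The 37 that went on lower had -1.13, -1.77 and -1.83. The 343 that held higher stood at 0.68, 0.88 and 0.83, and the 603 that held lower at -0.53, -0.71 and -0.70.

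**Figure D1:**
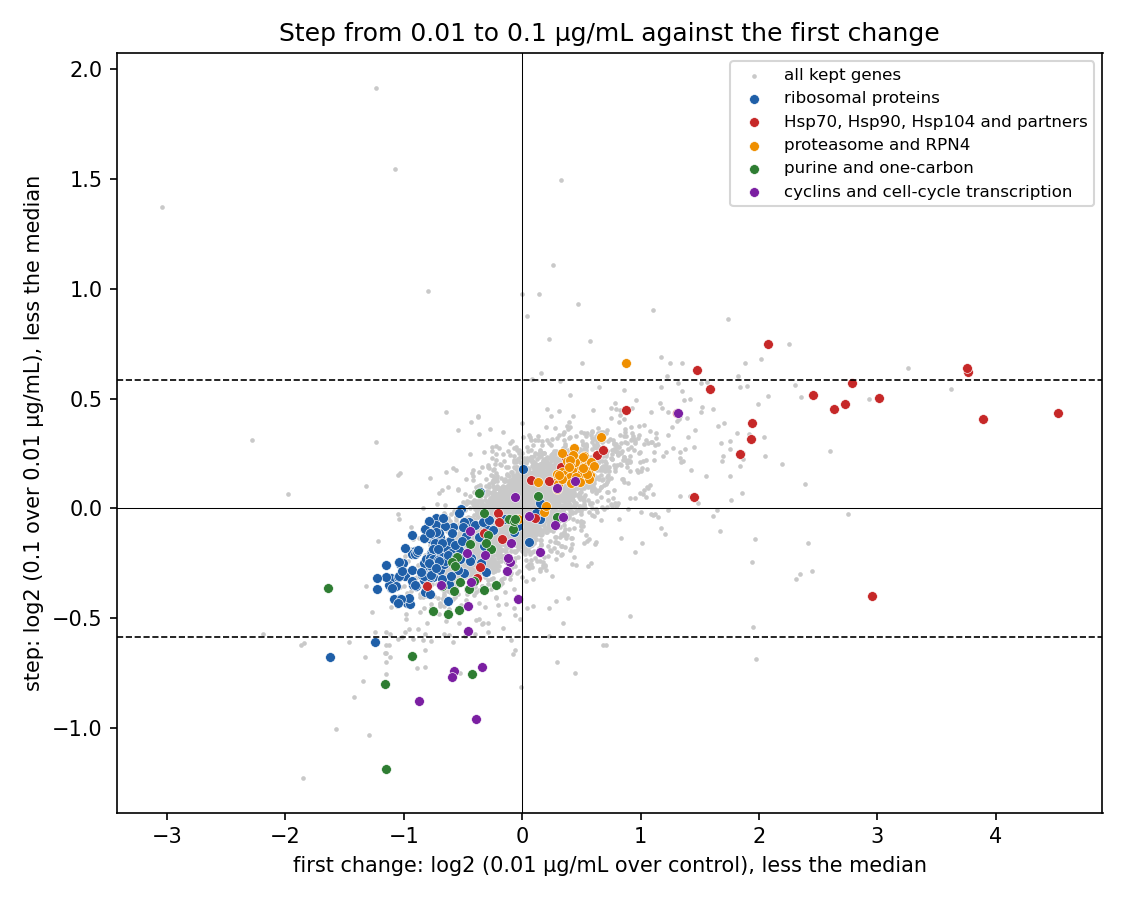
Each point is 1 of 4979 kept genes; the x axis is the centred log2 change from control to 0.01 µg/mL and the y axis the step to 0.1 µg/mL, with dashed lines at 1.5-fold and 5 gene lists in colour. Chaperone genes reach steps of up to 0.75 at the upper right, purine and one-carbon genes reach -1.19 at the lower left, and the level at 0.01 µg/mL enters both axes.

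Chaperone genes had the highest median step of the 58 gene lists examined, 0.26, and most of those called at 0.01 µg/mL went on at least in part. Of 34 genes of Hsp70, Hsp90, Hsp104 and their partners, 4 stood at least 1.5-fold higher at 0.1 than at 0.01 µg/mL, against 0.623% of all kept genes, and 15 at least 25% higher, against 3.01%. Of the 21 called higher at 0.01 µg/mL, 4 went on, 11 went on in part, 5 held and 1 went back in part. The median step of all kept genes was 0.00, and the chaperones' median centred change ran from 1.38 over 1.62 to 1.53 at the 3 doses. Of the 34, 9 had a negative step and 2 stood at least 20% lower, and 2, 3 and 5 were called lower at the 3 doses. Levels below are the authors' pooled FPKM, in the order control, 0.01, 0.1 and 0.5 µg/mL. They are not centred, and the median log2 change from control was -0.03 at 0.1 and -0.30 at 0.5 µg/mL, so the typical gene's level was lower at 0.5 µg/mL.

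HSP104 (YLL026W, chromosome XII), the disaggregase that pulls proteins out of aggregates, stood at 86.2, 1116, 1771 and 1046 FPKM. Its step was 0.62, a 1.54-fold difference, and its highest level was at 0.1 µg/mL. HSP82, one of 2 Hsp90 genes, stood at 81.8, 1050.4, 1684 and 982 FPKM, a step of 0.64. The other Hsp90 gene, HSC82, went on in part, at 415, 1514, 2040.3 and 1451 FPKM. Both Hsp90 genes peaked at 0.1 µg/mL, and since they are near-identical copies the split of reads between them is uncertain. CUR1, which helps to sort misfolded proteins for clearance, stood at 34.7, 139, 241 and 169 FPKM, with the largest step of the list, 0.75. HSP31, a chaperone-like detoxifying enzyme, stood at 169.9, 449.7, 717 and 499 FPKM, a step of 0.63.

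Partners of Hsp90 and Hsp70 followed with smaller steps. The Hsp90 co-chaperone genes CPR6, STI1 and AHA1 had steps of 0.54, 0.52 and 0.43, and the J-domain genes SIS1 and YDJ1 steps of 0.45 and 0.45. The Hsp110 gene SSE2, an exchange factor for Hsp70, stood at 38.9, 255, 390.0 and 220.5 FPKM, a step of 0.57. The Hsp70 genes SSA1 and SSA2, near-identical copies whose reads may be exchanged, had steps of 0.50 and 0.48. HSP42, a small heat-shock protein that gathers aggregates, stood at 116, 1636, 2234 and 1162 FPKM, a step of 0.41. BTN2, a sorting factor for misfolded proteins, stood at 31.0, 676, 939.9 and 316 FPKM. These genes peaked at 0.1 µg/mL like HSP104, within 1.5-fold of their level at 0.01 µg/mL. CPR6, STI1, AHA1, YDJ1 and BTN2, and HSC82 above, were named after their values were seen.

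The 2 genes of the list at least 20% lower at 0.1 µg/mL were SSA4 and PPT1. SSA4, an inducible Hsp70 gene, stood at 73.5, 541, 423 and 198 FPKM, so that it rose at 0.01 µg/mL and then stood 1.32-fold lower at 0.1 µg/mL, a step of -0.40. Its highest level was at the lowest dose, unlike that of SSA1 and SSA2, and it was named after its values were seen because it is 1 of the 3 genes that went back in part. PPT1, the Hsp90 phosphatase gene, was called lower at 0.01 µg/mL and went on in part, at 136, 73.7, 59.5 and 46.5 FPKM, a step of -0.35. SSB1, a ribosome-bound Hsp70, stood at 1885, 1378, 1140 and 976 FPKM, a step of -0.32, and was newly called lower at 0.1 µg/mL. PPT1 and SSB1 were also named after their values were seen. In mitochondria, 4 of 12 chaperone genes were at least 25% higher and the median step was 0.21. HSP78, the mitochondrial disaggregase, stood at 19.0, 223, 335 and 164 FPKM, a step of 0.54. The J-domain gene MDJ1 and the chaperonin genes HSP60 and HSP10 had steps of 0.56, 0.46 and 0.44. Of 14 genes of the cytosolic chaperonin, which folds actin and tubulin, and its partner prefoldin, 0 passed the smaller limit in either direction, with a median step of -0.01.

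**Figure D2:**
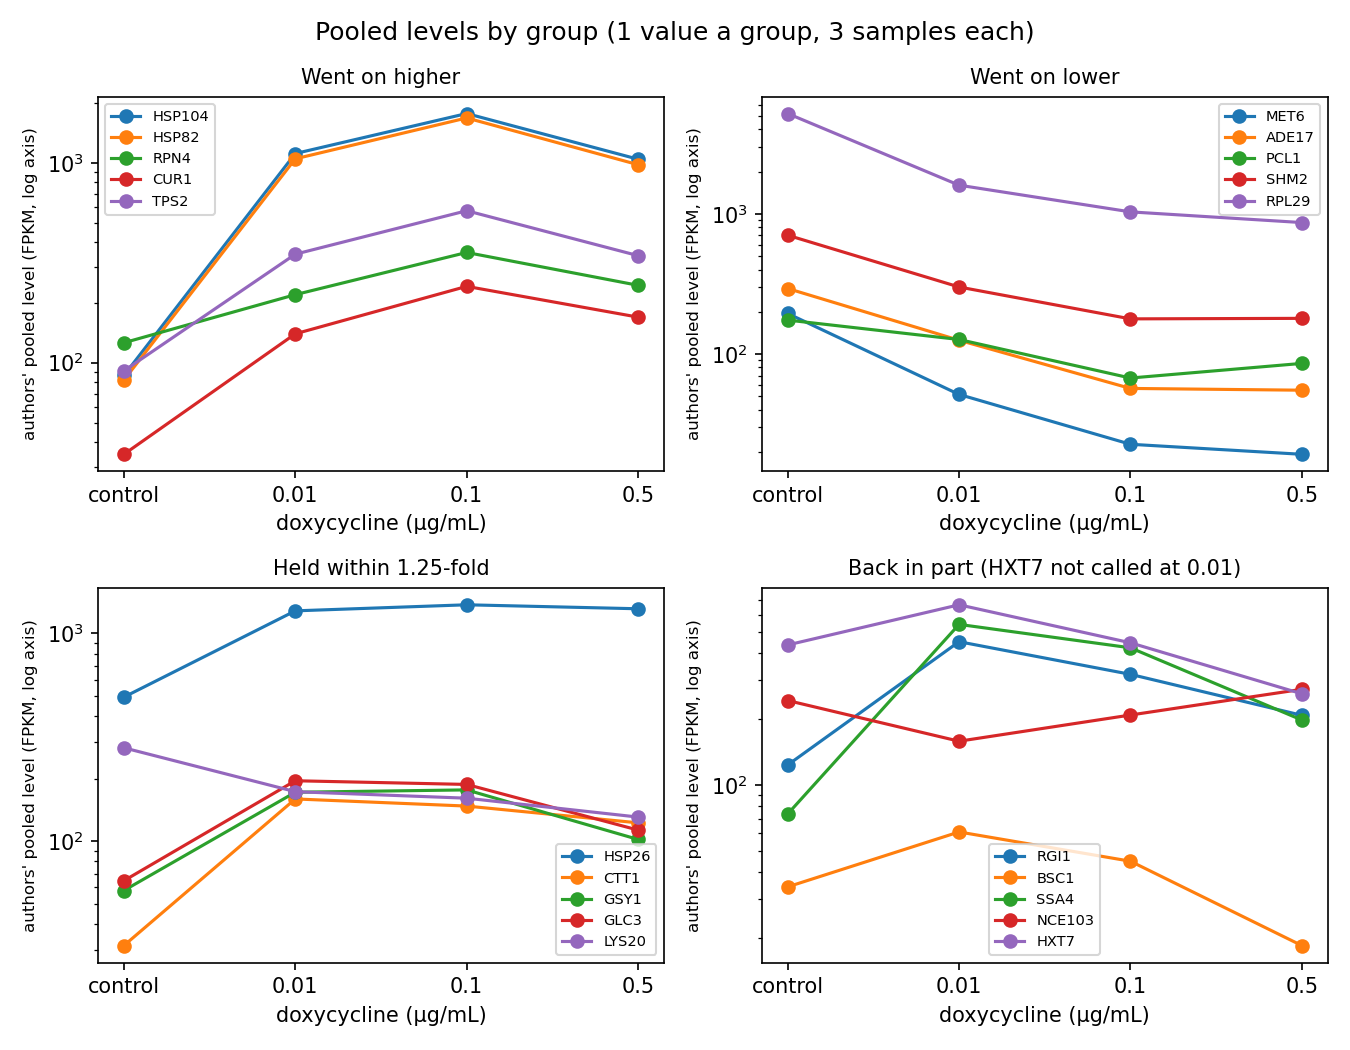
The authors' pooled level (FPKM, log axis) of 5 genes a panel in control and at 0.01, 0.1 and 0.5 µg/mL doxycycline, 1 value a group of 3 samples, with no error since levels were pooled. HSP104 and TPS2 rise on to 0.1 µg/mL, MET6 and ADE17 fall on, HSP26 and LYS20 hold, and SSA4 and RGI1 come down from their level at 0.01 µg/mL.

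Proteasome genes moved by a small and even step. RPN4, the activator of proteasome genes, stood at 126, 219, 356 and 244 FPKM, a step of 0.66. Of the 45 genes of the list, 43 had a positive step but 1, RPN4, passed 1.5-fold and 2 passed the smaller limit, with a median of 0.17. The other one was RPN1, a base subunit of the regulatory particle, at 204, 309, 398 and 285 FPKM and a step of 0.32. Yet the number called higher against control went from 4 at 0.01 to 36 at 0.1 µg/mL and was 8 at 0.5 µg/mL, while over all kept genes the share called higher was 8.88%, 17.8% and 7.53%. The median centred change of the list ran from 0.43 over 0.61 to 0.63, so fewer calls at 0.5 µg/mL went with no lower median. PRE2, a catalytic subunit, shows the size of the step: 307, 395, 492 and 435 FPKM. For 39 windows holding the proteasome-associated control element GGTGGCAAA, 0.791% of all, the median step was 0.13. Of the 45 proteasome genes, 4 held it within their windows. The windows leave out the stretch next to the start codon, so elements there were not counted.

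Autophagy and ubiquitin genes had steps of like size. Of 27 autophagy genes, 25 had a positive step and 3 passed the smaller limit higher, with a median of 0.17. Called higher were 7 at 0.01, 16 at 0.1 and 5 at 0.5 µg/mL. Over all kept genes the share called higher also rose and fell, 8.88%, 17.8% and 7.53%. ATG8, which coats the growing autophagosome, stood at 182, 429, 582 and 469 FPKM, a step of 0.40. Of 27 ubiquitin and Cdc48 genes, 1 passed the smaller limit, with a median of 0.15. The ubiquitin gene UBI4 stood at 256, 504, 644 and 539 FPKM, a step of 0.31, and thus held.

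General stress genes had a median step of 0.07, against 0.26 for the chaperones. Of 45 such genes, 31 were called higher at 0.01 µg/mL, and of these 1 went on, 4 went on in part and 26 held, where 343 of all 442 genes called higher held. The median centred change was 0.97 at 0.01, 1.11 at 0.1 and 1.09 at 0.5 µg/mL, so 87.4% of the median change at 0.1 µg/mL was there at 0.01, close to the 85.0% of the chaperones. DDR2, a stress-induced gene, stood at 951, 3285, 3954 and 4114 FPKM, a step of 0.22, and HOR7 at 11730.0, 23316, 29565 and 24604 FPKM, a step of 0.30. The cytosolic catalase gene CTT1 of this list stood at 31.5, 160.0, 148 and 123 FPKM. The small heat-shock gene HSP26, which is counted in the chaperone list and not in this one, stood at 494, 1285, 1374 and 1315 FPKM. HSP26 and CTT1, named after their values were seen, differed by 1.04-fold and 1.12-fold between these doses on the centred scale, CTT1 being lower at 0.1 µg/mL. The gene that went on was HSP30, a plasma membrane stress protein, at 294, 2674, 4292 and 2521 FPKM and a step of 0.64. PNC1, a nicotinamidase, had a step of 0.56. RCK1, a protein kinase gene of the list, was called lower and went on: 27.6, 10.7, 5.39 and 5.09 FPKM, a step of -1.03.

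Trehalose and glycogen genes differed among themselves at this step. Of 18, 12 were called higher at 0.01 µg/mL, and of these 1 went on, 2 went on in part and 9 held. TPS2, the trehalose-6-phosphate phosphatase, stood at 90.9, 349, 577 and 344 FPKM, a step of 0.68. TPS1, the synthase before it, had a step of 0.34 and the trehalase gene NTH1 one of 0.50. Trehalose genes thus hold the 3 largest steps of the list, and the lowest was that of a glycogen gene. GPH1, the phosphorylase that breaks glycogen down, stood at 60.1, 289.7, 243 and 165 FPKM, a step of -0.30. The glycogen synthase gene GSY1 stood at 58.0, 172, 177 and 102 FPKM and the branching enzyme gene GLC3 at 64.7, 196, 188 and 113 FPKM. GSY1 and GLC3 were named after their values were seen, and their levels at 0.1 µg/mL were 0.997 and 0.932 of those at 0.01 µg/mL on the centred scale. The stress-response element stood in 14 of the 18 windows of the list, 77.8%, and the heat-shock element in 0.

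Other genes that went on higher belonged to no single list. YPK2, a kinase of the TORC2 pathway, stood at 31.8, 144, 249 and 146 FPKM, a step of 0.75. THI4, which makes the thiazole part of thiamine, stood at 5.99, 18.9, 35.5 and 38.4 FPKM, a step of 0.86. OPI10, LSO1 and FIT2, the last a cell wall protein of iron uptake, had steps of 0.66 each, and TDA6 one of 0.60. At 0.5 µg/mL the FPKM of THI4 and FIT2 stood close to that at 0.1 µg/mL, and that of YPK2 and OPI10 lower. The list that joins the plasma membrane proton pump, its partners and kinases with HSP30, MRH1 and YRO2 had a median step of 0.18. Of its 10 genes, 3 passed the smaller limit, HSP30 among them. SLT2, the kinase of the cell wall integrity pathway, stood at 207, 502, 749 and 581 FPKM, a step of 0.53, in a list of 26 cell wall genes where 3 passed the smaller limit higher.

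**Figure D3:**
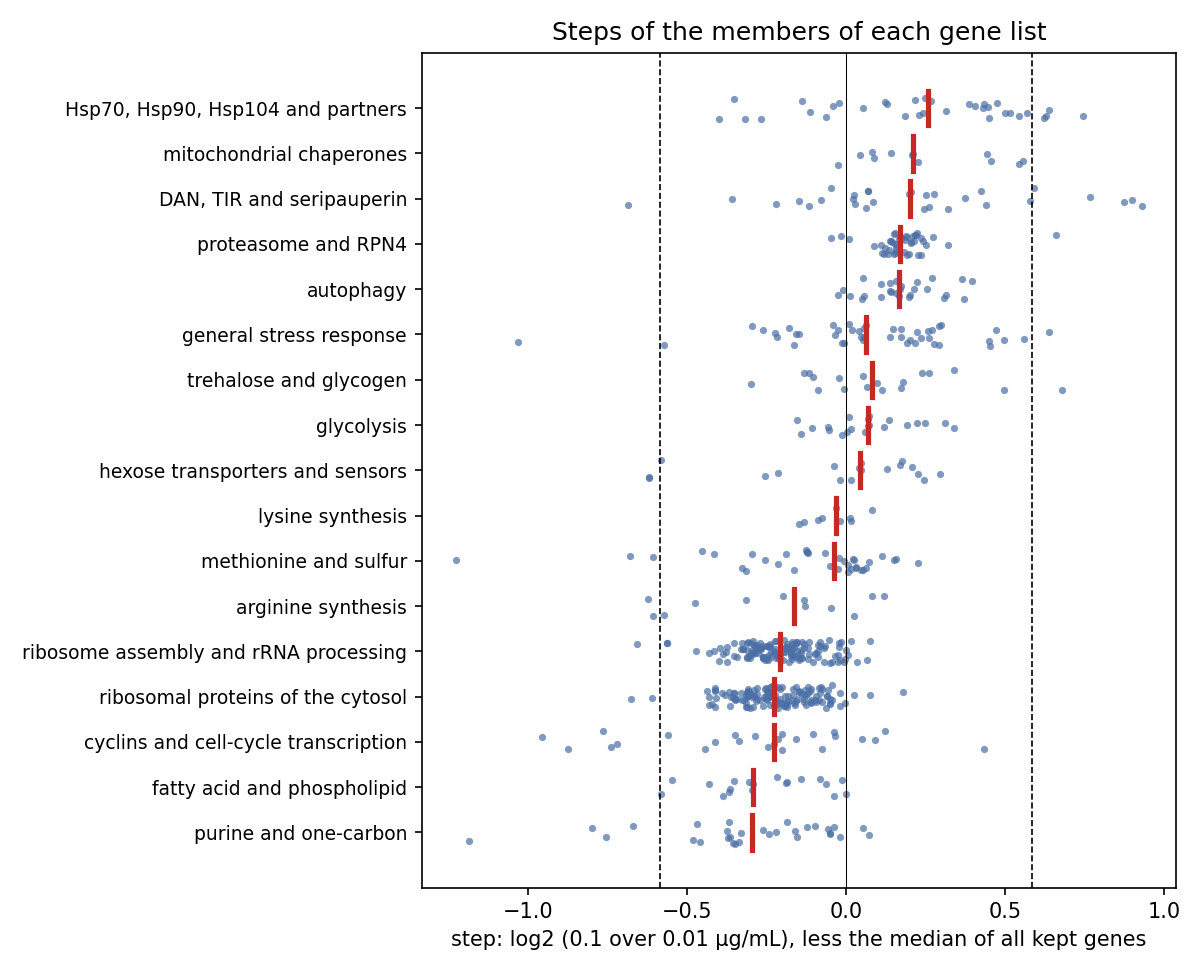
Steps (log2, less the median of kept genes) of the members of 17 gene lists, 1 point a gene, with a red bar at each list's median and dashed lines at 1.5-fold. Chaperones have a median of 0.26 and a wide spread, proteasome genes sit close to 0.17, ribosomal protein genes around -0.23 and purine and one-carbon genes reach -1.19.

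Purine and one-carbon genes had the lowest median step of the 58 lists, -0.30. Of 30 purine and one-carbon genes, 4 stood at least 1.5-fold lower at 0.1 than at 0.01 µg/mL, against 0.924% of all kept genes, and 15 at least 20% lower, against 4.54%. Of the 17 called lower at 0.01 µg/mL, 4 went on, 8 went on in part and 5 held. The median centred change ran from -0.43 over -0.75 to -0.80, so 57.8% of the change at 0.1 µg/mL was there at 0.01. ADE17 (YMR120C, chromosome XIII), which closes the purine ring, stood at 293, 125, 56.6 and 55.0 FPKM. Its step of -1.19 means a level 2.28-fold lower at 0.1 than at 0.01 µg/mL. SHM2, the cytosolic serine hydroxymethyltransferase that feeds one-carbon units into folate, stood at 703, 300.1, 178 and 179 FPKM, a step of -0.80. MTD1, a folate dehydrogenase of the cytosol, stood at 311, 220.4, 135 and 138 FPKM, a step of -0.75. The FPKM of these 3 genes was lower at 0.1 than at 0.01 µg/mL and close to that value at 0.5 µg/mL. On the centred scale they stood less far below control at 0.5 than at 0.1 µg/mL, ADE17 at -2.10 against -2.34, SHM2 at -1.66 against -1.95 and MTD1 at -0.87 against -1.18. FCY2, the purine permease, stood at 605, 302, 195 and 149 FPKM, a step of -0.67. Of the 30 windows of this list, 15 held TGACTC, against 8.70% of all windows.

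MET6 (YER091C, chromosome V), the methionine synthase that takes its methyl group from folate, had the lowest step of all kept genes. It stood at 194, 51.3, 22.6 and 19.2 FPKM, a step of -1.23, or 2.34-fold lower at 0.1 than at 0.01 µg/mL. Of 36 methionine and sulfur genes, 3 passed 1.5-fold lower and 6 passed the smaller limit, and the median step was -0.04. The other genes past 1.5-fold were SSU1, the sulfite exporter, at 104, 39.4, 25.3 and 18.4 FPKM, and MUP1, the methionine permease, at 179.8, 114, 77.2 and 64.1 FPKM. SAM1, which makes S-adenosylmethionine, had a step of -0.45. Genes of sulfate assimilation had small steps: MET3, MET14 and MET16, named after their values were seen, stood at steps of -0.05, -0.12 and -0.02.

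Amino acid genes differed by pathway. In arginine synthesis, ARG1 stood at 205, 53.1, 35.6 and 31.4 FPKM and ARG4 at 228, 78.6, 53.1 and 39.1 FPKM, steps of -0.62 and -0.61. With them 2 of 12 genes of the list passed 1.5-fold and 4 passed the smaller limit lower. Of 11 branched-chain genes, 2 passed 1.5-fold lower: ILV3 at 922, 497, 327 and 209 FPKM and LEU9, a paralog of LEU4, at 149, 64.7, 43.3 and 32.7 FPKM. Of the 7 lysine synthesis genes called lower at 0.01 µg/mL, 7 held. LYS20, its first enzyme, stood at 282, 173, 161 and 131 FPKM, a step of -0.15. Of 21 aromatic and histidine genes, 0 passed the smaller limit. GCN4 mRNA, for the activator of many of these genes, stood at 1686, 1745, 1793 and 1785 FPKM and was called at no dose. Of 15 amino acid permease genes, 3 passed the smaller limit lower: AGP1 at 182, 78.0, 47.7 and 34.8 FPKM, DIP5 with a step of -0.52 and GAP1 with one of -0.52.

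Carbon and lipid genes gave a few large steps. ALD6, the cytosolic acetaldehyde dehydrogenase, stood at 831, 294, 168 and 164 FPKM, a step of -0.86. The mitochondrial enzyme gene ALD5 stood at 213, 119, 80.6 and 66.9 FPKM and MPC3, a mitochondrial pyruvate carrier subunit, at 180.2, 47.8, 32.2 and 27.1 FPKM. These were the 3 of 33 TCA cycle and pyruvate genes past 1.5-fold lower, and the list's median step was -0.02. Of 19 fatty acid and phospholipid genes, 0 passed 1.5-fold and 7 passed the smaller limit lower, and the median step was -0.29. The elongase gene ELO1 had a step of -0.58, and the fatty acid synthase genes FAS2 and FAS1 steps of -0.43 and -0.39. HNM1, the choline transporter, stood at 259, 111, 74.4 and 58.0 FPKM, a step of -0.62. Of 26 ergosterol genes, 0 passed the smaller limit. FUI1, the uridine permease, had a step of -0.79 and BNA1, of NAD synthesis, one of -0.70.

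Cell-cycle genes gave the other set of large falls, and here less of the change was present at the lowest dose. Of 25 cyclin and cell-cycle transcription genes, 5 stood at least 1.5-fold lower at 0.1 than at 0.01 µg/mL, against 0.924% of all kept genes. At least 20% lower were 10, against 4.54%. In the other direction 1 gene, SRL3, stood at least 25% higher, with a step of 0.44. The median centred change was -0.13 at 0.01, -0.44 at 0.1 and -0.38 at 0.5 µg/mL. PCL1 (YNL289W, chromosome XIV), a G1 cyclin of the kinase Pho85, stood at 174, 127, 67.2 and 85.4 FPKM, a step of -0.96. CLN1, a G1 cyclin of Cdc28, stood at 79.6, 59.7, 37.3 and 33.7 FPKM, a step of -0.72. CLB6, an S-phase cyclin, stood at 19.7, 10.2, 5.75 and 5.40 FPKM, a step of -0.87. YOX1, a repressor of the M/G1 genes, stood at 56.5, 35.6, 21.6 and 25.2 FPKM, and CLB1, a mitotic cyclin, at 166, 106, 65.2 and 44.1 FPKM. The falls thus took in cyclins of G1, S phase and mitosis. PCL1 and YOX1 stood higher again at 0.5 than at 0.1 µg/mL, CLB1 lower still. CLN3, the first G1 cyclin, stood at 84.6, 89.0, 79.8 and 70.8 FPKM, and SIC1, the Cdc28 inhibitor, at 251, 238, 265 and 206 FPKM. CLN3, named after its values were seen, and SIC1 were called at neither 0.01 nor 0.1 µg/mL.

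Genes of daughter cells and mating type switching were among the largest falls as well. HO, the endonuclease that switches mating type, stood at 41.1, 13.2, 6.77 and 5.28 FPKM, and went on lower at this step. DSE1, a daughter-cell gene of cell separation, stood at 497, 256, 159.6 and 90.0 FPKM, a step of -0.72. Of 12 genes of this list, 2 passed 1.5-fold and 3 passed the smaller limit lower. UTR2, a cell wall glycosidase, had a step of -0.68, and TIR1, a cell wall mannoprotein, stood at 1298, 647, 414 and 419 FPKM, a step of -0.69. Among 29 pheromone and a-cell genes, 0 passed 1.5-fold and 5 passed the smaller limit lower, with ASG7 at -0.51 and FUS1 at -0.40. For the labelled MATa state, summed levels of 7 a-cell markers were 1.692e+05 and 1.915e+05 FPKM at 0.01 and 0.1 µg/mL, those of 4 alpha-cell markers 369 and 389 FPKM. Summed meiotic markers stood at 87.2 and 92.8 FPKM and resting-cell markers at 268 and 287 FPKM. These sums stood higher at 0.1 than at 0.01 µg/mL, as did the sum over all 5085 genes listed, 1.80e+06 and 1.89e+06 FPKM, and their part in the results was not tested. Single markers did not all follow these sums. Steps ran from -0.51 to 0.19 among the a-cell markers and from -0.33 to 0.22 among the alpha-cell ones. For meiotic markers they ran from -0.72 to 0.14 and for resting-cell markers from -0.43 to 0.24. Of the 7 a-cell markers, 2 stood at least 20% lower and 0 at least 25% higher. Fewer dividing cells and less cyclin mRNA per cell cannot be told apart in bulk samples.

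Ribosome genes took a small further step down. Of 137 ribosomal protein genes, 134 had a negative step, 24 passed the smaller limit lower and 2 passed 1.5-fold, with a median of -0.23. Of the 113 called lower at 0.01 µg/mL, 2 went on, 22 went on in part and 89 held, where 603 of all 771 genes called lower held. Their median centred change was -0.75, -0.94 and -0.78 at the 3 doses. RPL29 stood at 5199.7, 1601, 1032 and 866 FPKM, a step of -0.68. RPL16A stood at 971, 391, 264 and 188 FPKM, a step of -0.61, while its paralog RPL16B, named after its values were seen, stood at 2519, 1589, 1513 and 1263 FPKM and held. Reads of such paralogs may be split unevenly between copies, which leaves the difference uncertain. Of 139 ribosome assembly and rRNA processing genes, 133 had a negative step and 19 passed the smaller limit lower, with a median of -0.21. DHR2, a helicase of small-subunit assembly, stood at 72.4, 30.9, 20.2 and 17.1 FPKM and was the 1 gene of the list past 1.5-fold. The nucleolar protein gene NSR1 and the helicase gene DBP2 had steps of -0.56 each. The 76 genes listed as mitochondrial ribosomal had a median step of 0.05. Of these, 1 passed the smaller limit, MRP8, with a step of 0.34, and its place in the list is uncertain. The next was RSM19, with a step of 0.27.

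**Figure D4:**
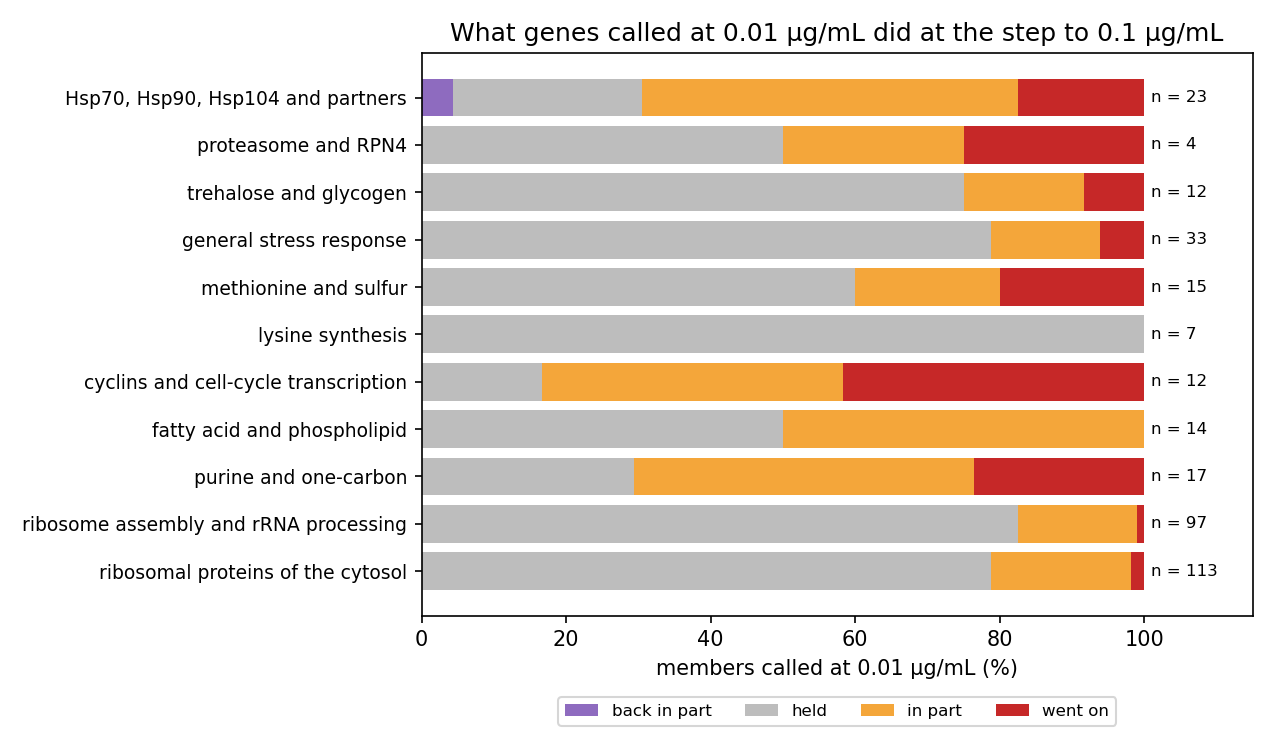
Share (%) of the members called at 0.01 µg/mL, in either direction, that went on, went on in part, held or went back in part at the step to 0.1 µg/mL, with the number called at the right. All 7 lysine genes held. Most ribosomal protein and general stress genes held, as did 77.6% of all genes called higher and 78.2% of all called lower. Cyclin, purine and one-carbon, and chaperone genes mostly went on or went on in part.

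Few called genes came back. Besides SSA4, the genes that went back in part after a first rise were RGI1, a regulator of respiratory growth, and BSC1. RGI1 stood at 123, 451, 319.8 and 208 FPKM, a step of -0.54, and BSC1 at 34.2, 60.9, 44.7 and 18.4 FPKM, a step of -0.49. On the lower side it was NCE103, the carbonic anhydrase, at 243, 158, 208 and 273 FPKM, a step of 0.35. RGI1 and NCE103 were named after their values were seen, and for all 4 the level at 0.5 µg/mL lay further in the direction of the return. Of the high-affinity hexose transporters, HXT7, HXT6 and HXT4 were called at neither 0.01 nor 0.1 µg/mL. HXT7 stood at 436, 665, 446 and 261 FPKM, a step of -0.62, with q = 0.0846 at 0.01 and q = 0.921 at 0.1 µg/mL by the authors' deposited tables. HXT6, a near-identical copy, stood at 398, 618, 415 and 250.4 FPKM, and HXT4 at 382, 426, 293 and 170.5 FPKM, below control at 0.1 µg/mL. The low-affinity transporter gene HXT3 went the other way, at 1378, 2425, 3069.5 and 1979 FPKM, a step of 0.30, and held. Of 21 glycolysis genes, 1 passed the smaller limit, the glucokinase gene GLK1, with a step of 0.34 and a list median of 0.07.

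A further 6 genes were late: not called at 0.01, called higher at 0.1 µg/mL and at least 1.5-fold above their level at 0.01. The metallothionein genes CUP1-1 and CUP1-2, identical tandem copies between which reads cannot be divided, stood at 8268 and 8320.5 FPKM in control, 18330.0 and 17862 at 0.01, 28664 and 29660.0 at 0.1, and 20064 and 20447 at 0.5 µg/mL. For CUP1-1 the q was 0.141 at 0.01 µg/mL, where it already stood above control, and 0.00316 at 0.1 µg/mL by the authors' deposited tables. The others were 15S_RRNA, the small-subunit rRNA of mitochondria, and the seripauperin genes PAU7, PAU21 and PAU22. PAU7 stood at 144, 145, 225 and 205 FPKM, a step of 0.59, so it was flat until 0.1 µg/mL. PAU21 and PAU22 stood at 2.98 and 3.00 FPKM at 0.01 µg/mL and at 5.86 and 5.27 FPKM at 0.1, close to the level limit and in a family of near-identical copies. On the lower side 1 gene was late, SRO9, at 6.24, 5.54, 3.78 and 3.94 FPKM. Beside these, 442 further genes were called higher at 0.1 µg/mL but not at 0.01 with a step under 1.5-fold (median 0.17), and 275 were newly called lower (median -0.19). Their median centred changes at 0.01 µg/mL were already 0.39 and -0.29.

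Some of the higher genes lay near chromosome ends or on the mitochondrial genome. Of the 31 genes at least 1.5-fold higher, 5 lay within 20 kb of a chromosome end, 16.1% against 3.01% of all kept genes, and of the 46 lower genes 0 did. Of 30 seripauperin, DAN and TIR genes, 5 passed 1.5-fold higher and 1, TIR1, lower. The largest steps of this family were those of PAU21, PAU15, PAU19 and PAU22, at 0.93, 0.90, 0.88 and 0.77. PAU15 and PAU19 lacked a level of 20 FPKM or a call at 0.01 or 0.1 µg/mL, so their steps are uncertain. Of the 5 genes past 1.5-fold higher, 1 went on and 3 were late. The genes near chromosome ends and those of this family may in part be the same, so their counts are not separate results. The 3 mitochondrial genome transcripts kept had steps of 0.76, 0.66 and 0.55. 15S_RRNA stood at 10.3, 14.6, 25.4 and 36.7 FPKM, OLI1, the ring subunit of ATP synthase, at 69.9, 169, 276 and 314 FPKM, and 21S_RRNA at 9.30, 13.9, 20.9 and 22.1 FPKM. All 3 were higher at each dose than at the one before it, while nuclear oxidative phosphorylation genes had a median step of -0.01. The labels name polyA RNA, and how far the mitochondrial transcripts follow polyadenylation was not tested.

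RAP1 mRNA stood at 31.7, 33.3, 31.0 and 21.99 FPKM, a step of -0.15, and was called at 0.5 µg/mL alone. Lower RAP1 mRNA was thus not seen in the groups labelled 0.01 and 0.1 µg/mL, whose doses are those of the labels. At 0.5 µg/mL 39.0% of all kept genes were called lower, and the median log2 change from control was -0.30. The call of RAP1 at that dose is therefore not particular to RAP1. Of 20 genes for Rap1, other general regulatory factors and ribosomal regulators, 0 passed the smaller limit. TOD6, a repressor of ribosome assembly genes, had the largest step of these, -0.32. Among silencing and telomere genes SIR2, the silencing deacetylase, stood at 34.9, 18.0, 12.7 and 10.8 FPKM, a step of -0.55, and was the 1 of 19 past the smaller limit.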

How the data were processed

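RNA was measured in 12 samples, in 4 groups of 3. The submitters' processing notes name build R64 and the tools FastQC, Bowtie2 and Cuffdiff, with versions and settings not given in the sources used here. Samples of a group were pooled by the authors into 1 FPKM value per gene, with Cuffdiff as those notes say; the unit was inferred from the deposited column names. The log2 fold changes and q-values were deposited by the authors for each dose against control. Each table was scaled apart: control columns had a median ratio of 0.997 (0.1 over 0.01 µg/mL), with an SD of 0.00023 in log2 over genes, so the step differs from the direct ratio of the dose columns by at most 0.0028. Control levels printed are those of the 0.01 µg/mL table.

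Of 5085 genes, 29 had a level of 0 and 77 stayed under 5 FPKM. The median log2 fold change taken off was -0.07 at 0.01, -0.03 at 0.1 and -0.30 at 0.5 µg/mL. For 2 genes a symbol that had become a date was restored, and 5017 genes were found in the RefSeq table. Steps were computed in Python 3.11.15 with pandas 2.3.3 and numpy 2.4.6 and tested on simulated data.

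The members, the 58 gene lists and the rules were chosen with earlier results of these data known. Genes to name were drawn from the 20 largest steps in each direction among genes called at 0.01 or 0.1 µg/mL and reaching 20 FPKM. They were also drawn from the 10 largest of each late or returning class and from 4 members of each list by step and 4 by level. RAP1, the genotype genes and the 10 genes nearest the limit on each side were added. Not all of these are named above, and levels of the genotype genes LEU2, MET17, HIS3 and URA3 are not printed. Alternatives were other level minimums, centrings, a pseudocount, other folds and a stricter q. Genes whose reads may be shared with a copy or with an overlapping gene are uncertain, since strand handling is not given.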

Additional observations from a re-analysis of the deposited data

How the results depend on the processing

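Steps could be checked against processing but not against sample spread. No paired analysis was possible because each group has 1 pooled level, and for the same reason no sample could be left out. Without centring, 27 genes in place of 15 went on higher and 2 went back in part from the lower side. At a step of 25% higher or 20% lower, 150 genes were higher and 226 lower, 96 went on higher and 167 lower, 3 and 1 turned back, and 29 were late higher. At 2-fold, 5 were higher and 4 lower, 0 went on higher, 4 went on lower and 0 were late higher. With q below 0.01, 214 held higher and 344 held lower. The 1 gene late lower became 2 at a level minimum of 1 FPKM and 36 at the 25% and 20% limits, 6 with q below 0.01, and 0 at a minimum of 20, without centring, with a pseudocount of 1 or at 2-fold; the cause was not tested. Centring on genes called at neither dose, or the direct ratio of the dose columns, left each count within 1.5 times. Named genes and list medians that changed sign under another level minimum, centring or a pseudocount were of size 0.05 or less, except at a minimum of 20 FPKM, where 3 list medians of size up to 0.13 did. A pseudocount of 1 moved 6 of 432 named genes by 0.1 or more, at most 0.20.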

Other observations

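The steps furthest above the median belonged to tRNA genes, which were called at neither dose. They are 21 of the kept genes (0.422%) but 7 of the 31 at least 1.5-fold higher (22.6%) and 3 of the 46 lower (6.52%), and polyA RNA is labelled as the molecule. The 5 EMT genes code for methionine tRNAs and are shown after their values were seen. EMT3 stood at 59.4, 24.0, 93.2 and 129 FPKM in control and at 0.01, 0.1 and 0.5 µg/mL, a step of 1.91, the highest of all kept genes. EMT2 stood at 72.5, 86.4, 250.3 and 96.8 FPKM and EMT5 at 331, 38.2, 102 and 289 FPKM. EMT1 stood at 114, 129.6, 287 and 432 FPKM, while EMT4 went down at the step, at 181, 163, 106 and 289 FPKM. Copies of 1 tRNA family thus moved in both directions, and reads may be exchanged between them. For EMT3 the q was 0.777 at 0.01 and 0.823 at 0.1 µg/mL by the authors' deposited tables.

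Among genes of DNA damage, multidrug resistance, histones and oxidative stress, 0 passed 1.5-fold. Of 15 DNA damage and ribonucleotide reductase genes, 2 stood at least 25% higher at 0.1 than at 0.01 µg/mL, against 3.01% of all kept genes, and of 22 multidrug resistance genes 4 did, among them the polyamine exporter TPO4 at 61.6, 173, 265 and 146 FPKM. Of 11 histone genes 0 lay past 25% higher or 20% lower. Of 35 oxidative stress genes 2 stood at least 25% higher, 1 of them the peroxiredoxin gene AHP1, at 1701, 3650.3, 5524 and 4534 FPKM and a step of 0.55.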
